A study of Mus musculus with 6 samples.

Results

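The 44 genes described here carry out DNA replication and mitosis, and they were followed in bulk RNA sequencing of LβT2 cells that were either fresh or kept in the preservation buffer RNA-Best. They are the genes of the deposited count table whose identifiers map to 44 chosen symbols, out of 47069 genes in all. Of these, 20 act in replication in S phase, 16 act in mitosis or its entry, and 8 are cyclins and kinases of G1 and the G1/S step. LβT2 is an immortalized mouse pituitary gonadotrope line, derived from a tumour in which the SV40 T antigen was driven by the promoter of a gonadotropin subunit gene. All 6 libraries came from cells at passage 14 given GnRH (gonadotropin-releasing hormone) at 2 nM for 40 min, and no untreated library enters these comparisons. The fresh group (n = 3 libraries) was not preserved, and the RNA-Best group (n = 3 libraries) was held refrigerated in the buffer for at least 4 days according to the methods of the study. The sources used here do not give separate cultures for the libraries of a group, so the p-values measure the spread between libraries, which may be technical. The question put to these genes is whether the levels of the replication and mitosis machinery in preserved cells differed from those in fresh cells by more than the spread between libraries.

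A dividing cell loads the MCM2-7 helicase onto origins in G1 through ORC, CDC6 and CDT1, fires these origins in S phase, and later hands the copied chromosomes to the spindle. D-type cyclins with CDK4 or CDK6, and E-type cyclins with CDK2, release the E2F factors from the retinoblastoma proteins and so turn on the replication genes, whereas the SV40 T antigen of immortalized lines binds the retinoblastoma proteins directly. Mitotic genes rise later in the cycle and many carry a CHR element (cell cycle genes homology region), often next to CCAAT boxes that NF-Y binds. These messages are commonly read as a measure of how many cells of a culture are in each phase. In bulk RNA, fewer cells in a phase and less RNA per cell cannot be told apart.

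The promoters of 36 of the 44 genes were found in the RefSeq promoter table of mouse assembly GRCm38.p6, which holds 250 bases before and 50 after each start. Both strands were searched for 3 motifs. The E2F site was any of TTCCCGC and TTCGCGC, which begin alike, and the pair that begins TTG, namely TTGCCGC and TTGGCGC. The CHR element was TTTGAA or its variant TTCGAA, and the last motif was CCAAT. The 200 bases before the start are shown for 5 genes, 5′ to 3′ on the strand of the gene, with E2F and CHR matches in capitals. They belong to the replication gene with the lowest fold change (*Mcm5*), a gene of the same helicase ring whose change did not pass the test (*Mcm6*), the mitotic genes with the lowest and highest fold changes (*Cdc20* and *Mki67*), and the kinase that starts mitosis (*Cdk1*).
Mcm5, chr8:75109309-75109508, plus strand: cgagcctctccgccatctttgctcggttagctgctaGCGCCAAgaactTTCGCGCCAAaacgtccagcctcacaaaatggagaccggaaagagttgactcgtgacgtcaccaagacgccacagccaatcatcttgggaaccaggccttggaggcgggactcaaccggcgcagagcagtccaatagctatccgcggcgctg
Mcm6, chr1:128359706-128359905, minus strand: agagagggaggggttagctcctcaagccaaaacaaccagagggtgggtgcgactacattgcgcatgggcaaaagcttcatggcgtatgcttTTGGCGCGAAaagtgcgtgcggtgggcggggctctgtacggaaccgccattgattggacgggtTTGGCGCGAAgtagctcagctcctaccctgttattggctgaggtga
Cdc20, chr4:118437344-118437543, minus strand: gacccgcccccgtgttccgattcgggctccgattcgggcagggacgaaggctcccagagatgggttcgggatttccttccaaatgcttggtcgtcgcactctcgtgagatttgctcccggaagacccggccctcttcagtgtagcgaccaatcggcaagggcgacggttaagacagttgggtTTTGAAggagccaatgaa
Cdk1, chr10:69352913-69353112, minus strand: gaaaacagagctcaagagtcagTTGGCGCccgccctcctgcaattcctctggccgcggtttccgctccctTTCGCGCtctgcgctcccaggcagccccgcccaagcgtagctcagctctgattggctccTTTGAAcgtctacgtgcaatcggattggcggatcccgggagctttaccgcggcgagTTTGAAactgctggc
Mki67, chr7:135716380-135716579, minus strand: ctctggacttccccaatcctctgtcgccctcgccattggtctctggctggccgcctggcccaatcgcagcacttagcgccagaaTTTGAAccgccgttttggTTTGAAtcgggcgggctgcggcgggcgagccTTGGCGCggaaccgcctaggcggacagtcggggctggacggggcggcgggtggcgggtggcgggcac
In *Mcm5* and *Mcm6* the capitals are E2F matches, and matches on opposite strands overlap where the run is longer than 7 bases. *Cdc20* holds a single CHR match that begins 18 bases before the start. *Cdk1* holds both kinds, with CHR matches that begin 71 and 15 bases before the start, and *Mki67* holds an E2F match at 67 and CHR matches at 116 and 98 bases.

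Matches were counted per gene over the whole windows, and a gene with more than 1 window in the table, such as *Lig1*, counted if any of them matched. An E2F match was present in 13 of 17 replication genes (76.5%) and 3 of 14 mitotic genes (21.4%), against 10.9% of the 27025 genes with a promoter in the table. Over the whole windows the CHR match had the opposite distribution. It was present in 10 of 14 mitotic genes (71.4%) and 4 of 17 replication genes (23.5%), against 21.7% of all genes. In the 250 bases before the start alone, the E2F share of the replication genes was 58.8% (9.01% of all genes) and the CHR share of the mitotic genes 42.9% (19.6% of all genes). CCAAT was found in 70.6% of the replication and 85.7% of the mitotic genes, and in 41.1% of all. These shares describe letters in a short window and not binding. The fold changes were set beside the matches as a description. The 17 tested genes with an E2F match had a median log2 fold change (RNA-Best over fresh) of -0.05 and the 18 without had -0.09, while the medians were -0.06 for 14 genes with a CHR match and -0.07 for 21 without. For CCAAT they were -0.05 for 26 genes with a match and -0.12 for 9 without. With the exonic length offset described below, the medians with and without a match were -0.06 and -0.03 for E2F, 0.03 and -0.06 for CHR, and 0.03 and -0.11 for CCAAT. *Mki67*, with the highest change, and *Cdk1*, among the lowest, both hold E2F and CHR matches.

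The deposited values are counts per gene with parts of counts, and levels below are given as CPM, counts per 1000000 of the library size scaled by TMM. Depth was 14477304 to 47438746 counts in fresh and 4909418 to 11999363 in RNA-Best libraries, so that every fresh library was the deeper. Of 8 gonadotrope markers 7 had counts, and *Fshb* had 0. Their sum was 3230 to 3278 CPM in fresh and 2693 to 2757 CPM in RNA-Best libraries. Markers of other pituitary cells summed to at most 2.38 CPM and fibroblast markers to at most 0.273 CPM. Of 7 blood and endothelial markers, 6 had counts and *Ptprc* had 0, and they summed to 194 to 196 CPM in fresh and 196 to 211 CPM in RNA-Best, most of it from the endothelial genes *Cdh5* (150 CPM in fresh, 163 in RNA-Best) and *Pecam1* (42.7 and 38.8 CPM). The part of these lists in the changes below was not tested.

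Messages for the machinery of S phase and mitosis were present in fresh and in preserved cells, and many of them differed between the groups by small amounts in either direction. Of the 44 genes, 42 passed the filter on low counts. In RNA-Best, 10 of these were higher and 16 lower at a false discovery rate of 5% over all tested genes (edgeR's quasi-likelihood test with Benjamini-Hochberg adjustment, written as edgeR below), which is 61.9% against 50.7% of the 14736 genes tested. Among all genes 26.0% were higher and 24.7% lower. The median level was 131 CPM in the 42 genes and 27.8 CPM over all tested genes. At higher counts a change of the same size is easier to call. The part of level in these shares was not tested. The log2 fold changes ran from -0.28 for *Mcm5* to 0.48 for *Mki67*, with a median of -0.06 against -0.01 over all genes. No gene of the 42 reached an absolute log2 fold change of 0.5, a size that 1292 of all tested genes passed. Against a fold change of at least 1.2 (edgeR's glmTreat), 4 were called, namely *Pole*, *Cenpe*, *Cenpf* and *Mki67*, all higher, which is 9.52% against 11.4% of all genes (8.62% higher, 2.82% lower). The ranges of CPM of the groups did not overlap in 29 of the 42 genes (69.0%), compared with 57.9% of all genes. RNA-Best was above in 10 of them (29.0% of all genes) and below in 19 (29.0% of all genes).

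**Figure D1:**
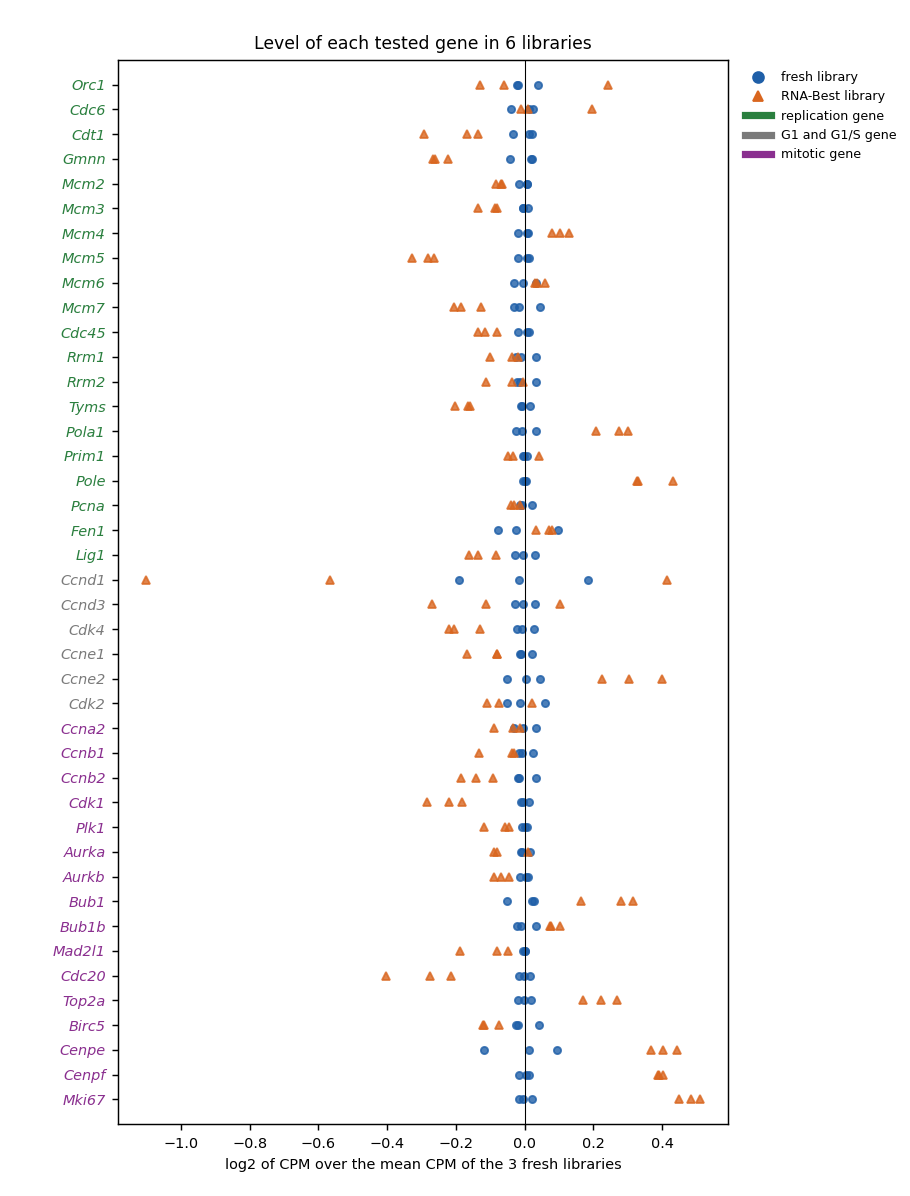
Each row is a tested gene and each point a library (circles, 3 fresh; triangles, 3 RNA-Best), placed on the x axis by the log2 of its CPM over the mean CPM of the fresh libraries. RNA-Best points lie to the right for *Mki67*, *Cenpf*, *Cenpe* and *Pole* and to the left for *Mcm5*, *Cdc20* and *Gmnn*, and the widest scatter is that of *Ccnd1*, at about 2 CPM.

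Of 11 licensing and helicase genes, 7 were lower in preserved cells (24.7% of all tested genes were), 1 was higher and 3 did not pass, with a median log2 fold change of -0.10. With offsets for exonic and for transcript length, 4 and 5 of the 11 were lower (20.4% and 18.1% of all genes). The lowest was *Mcm5* (ENSMUSG00000005410, GRCm38 chr8:75109569-75128439), a subunit of the replicative helicase. Its level was 242, 237 and 241 CPM in the fresh libraries and 197, 191 and 200 CPM in the RNA-Best libraries. Every RNA-Best value was below every fresh value. The mean was 240 ± 2.81 CPM (SD, n = 3) against 196 ± 4.44 CPM (SD, n = 3), a log2 fold change of -0.28 ± 0.03 (SE; edgeR, adjusted p = 4.24e-10). The highest was *Mcm4* (chr16:15623897-15637400), another subunit of the same ring, with 257, 258 and 253 CPM in fresh and 280, 275 and 271 CPM in RNA-Best libraries. Here every RNA-Best value was above the fresh ones, with a log2 fold change of 0.10 ± 0.03 (SE; edgeR, adjusted p = 0.00303). This call was lost with no filter on low counts, with an offset for GC content and with an offset for transcript length, where the log2 fold changes were 0.06, 0.00390 and 0.07.

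The 6 subunits of the MCM2-7 ring, which assemble in equal numbers in the protein complex, did not all change in the same direction. *Mcm5* and *Mcm7* (-0.16) fell most, *Mcm3* (-0.10) and *Mcm2* (-0.07) fell by less, *Mcm4* rose, and *Mcm6* had a log2 fold change of 0.05 that did not pass (edgeR, adjusted p = 0.161). The calls of *Mcm5* and *Mcm7* were lower under every alternative setting except the 1.2-fold threshold. *Mcm3* did not pass with the exonic length offset, the GC offset or thinning to the smallest library (edgeR, adjusted p = 0.0743, 0.0909 and 0.0710). *Mcm2* was called at an adjusted p of 0.0263 (edgeR). Without the first fresh library or any 1 of the RNA-Best libraries its adjusted p was 0.0601 to 0.0838 (edgeR), and with the GC offset its log2 fold change was 0.02. Among the loading factors, *Cdt1*, which brings the helicase to the origin, fell (-0.22), and so did *Gmnn*, which encodes the inhibitor of CDT1 (-0.25). *Cdt1* did not pass with the GC offset, nor *Gmnn* with the length offsets given below. *Cdc45*, a partner of the active helicase, fell as well (-0.11), but did not pass with thinning or with either length offset (edgeR, adjusted p = 0.119, 0.141 and 0.510). *Orc1*, a subunit of the origin recognition complex, and *Cdc6*, the loading ATPase, had log2 fold changes of 0.08 and 0.07 with overlapping groups and did not pass.

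Of the genes of deoxynucleotide supply, *Tyms*, the thymidylate synthase, was lower and both ribonucleotide reductase genes did not pass. The share called was 33.3%, against 50.7% of all genes. *Tyms* (chr5:30058202-30073617) was at 175, 176 and 179 CPM in fresh and 153, 158 and 158 CPM in RNA-Best libraries. The groups did not overlap, and the log2 fold change was -0.17 ± 0.03 (SE; edgeR, adjusted p = 1.8e-05). *Rrm2* (chr12:24708241-24714146), the subunit whose level limits the enzyme in S phase, was at 223, 221 and 230 CPM in fresh and 219, 208 and 224 CPM in RNA-Best. Its groups overlapped (log2 fold change -0.04 ± 0.03, SE; edgeR, adjusted p = 0.324). *Rrm1*, the partner subunit, had a log2 fold change of -0.05 (edgeR, adjusted p = 0.111). *Rrm1* was called lower with upper quartile scaling (-0.08), with no filter (-0.10) and with each offset. These values were -0.30 for exonic length, -0.12 for transcript length and -0.16 for GC content. *Rrm2* was called lower with no filter (-0.08) and with the GC offset (-0.10).

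Among the 6 genes of fork synthesis, *Pole* and *Pola1* rose, *Lig1* fell and 3 did not pass, a share of 50% called that lies at the 50.7% of all genes. *Pole* (chr5:110286306-110337474), the catalytic subunit of leading-strand polymerase epsilon, was at 97.5, 97.6 and 97.0 CPM in fresh and 122, 131 and 122 CPM in RNA-Best libraries. The fresh values lay within 1 CPM of each other and below all RNA-Best values. The log2 fold change was 0.35 ± 0.04 (SE; edgeR, adjusted p = 1.98e-10), or 1.28-fold. With the exonic and transcript length offsets it was 0.10 and 0.09, and the second did not pass (edgeR, adjusted p = 0.0507). *Pola1*, the catalytic subunit of polymerase alpha, rose by 0.27 on the log2 scale (0.09 and 0.11 with the exonic and transcript length offsets), whereas *Prim1*, the primase that works with it, had a log2 fold change near 0 (edgeR, adjusted p = 0.984). *Pold1*, the catalytic subunit of the lagging-strand polymerase delta, is not among the 44 and is named here after its values were seen. It went the other way from *Pole* and fell (log2 fold change -0.19), but the other listed subunits did not split by polymerase. Of polymerase delta, *Pold2* fell (-0.18) and *Pold3* rose (0.15). Of polymerase epsilon, *Pole3* fell (-0.09) and *Pole2* did not pass (-0.10). These were also named after their values were seen. *Lig1* (chr7:13277283-13311433), which joins Okazaki fragments, was at 307, 303 and 315 CPM in fresh and 276, 281 and 291 CPM in RNA-Best, a log2 fold change of -0.12 ± 0.03 (SE; edgeR, adjusted p = 0.000671). It did not pass with the GC offset (edgeR, adjusted p = 0.0908).

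*Pcna*, the sliding clamp, was at 428, 418 and 420 CPM in fresh and 418, 410 and 413 CPM in RNA-Best libraries. The groups overlapped slightly, and the log2 fold change was -0.03 ± 0.03 (SE; edgeR, adjusted p = 0.408). A processed pseudogene of the clamp, *Pcna-ps2*, held 86.2 CPM in fresh and 78.0 CPM in RNA-Best libraries, so reads may have been shared between these copies. *Fen1*, the flap endonuclease, stood at only 3.77 CPM in fresh and 3.94 CPM in RNA-Best. Other genes overlap 84.2% of its exonic bases, among them an antisense gene, and the counting was not stated to use strand, so its level is uncertain. Smaller shares of the exonic bases are overlapped by other genes in *Ccnd1* (23.4%), *Cdk4* (19.7%), *Ccne2* (17.4%), *Mcm7* (12.6%), *Ccna2* (12.5%) and *Orc1* (10.8%).

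Of the 8 genes of G1 and the G1/S step, *Ccne2* was higher, *Cdk4* lower, 4 did not pass and 2 were at or under the floor. The share called was 33.3% of the 6 tested, against 50.7% of all genes. Calls were made for 4 of the 6 with the exonic length offset (39.3% of all genes) and for 2 with the transcript length offset (35.2%). Cyclin D2 (*Ccnd2*) and *Cdk6* had at most 2 counts in any library, under the floor of 3 counts that a count of 0 allows, and were not tested. *Ccnd1* (chr7:144929931-144939925) was at 1.91, 2.48 and 2.16 CPM in fresh and 1.47, 1.02 and 2.91 CPM in RNA-Best libraries, where 1.02 CPM stood for 5 counts. Its groups overlapped and its log2 fold change of -0.10 ± 0.23 (SE) did not pass (edgeR, adjusted p = 0.737). *Ccnd3* (chr17:47505051-47599691) was the D-type cyclin with the most counts, at 53.9, 51.8 and 52.6 CPM in fresh and 43.8, 56.7 and 48.8 CPM in RNA-Best. One RNA-Best library lay above and the others below the fresh range, and the log2 fold change was -0.12 ± 0.05 (SE; edgeR, adjusted p = 0.0765). It was called lower with the exonic length offset (log2 fold change -0.29; edgeR, adjusted p = 3.51e-05), as well as with upper quartile scaling (-0.14; edgeR, adjusted p = 0.0325), with no filter on low counts (-0.16; edgeR, adjusted p = 0.00675) and without the second RNA-Best library (-0.18; edgeR, adjusted p = 0.00984), but not with the transcript length offset (-0.03; edgeR, adjusted p = 0.671). Per kilobase of exonic length *Ccnd3* had 5.84 CPM, *Ccnd1* 0.423 CPM and *Ccnd2* 0.00475 CPM on average over the 6 libraries, so cyclin D3 mRNA was the main D-type message of these cells. The D-cyclin partner *Cdk4* (chr10:127063534-127067920) had 60.2 CPM per kilobase. It was at 207, 205 and 212 CPM in fresh and 180, 190 and 179 CPM in RNA-Best libraries, and fell without overlap (log2 fold change -0.19 ± 0.03, SE; edgeR, adjusted p = 4.04e-06).

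Of the E-type cyclins, whose messages peak at the G1/S step, only *Ccne2* passed the test. *Ccne2* (chr4:11191351-11204779) was at 61.7, 60.0 and 57.7 CPM in fresh and 73.9, 78.9 and 69.9 CPM in RNA-Best libraries, which is above the fresh range in all 3 (log2 fold change 0.28 ± 0.05, SE; edgeR, adjusted p = 1.84e-06). With the GC offset it did not pass (log2 fold change 0.07; edgeR, adjusted p = 0.188). *Ccne1* averaged 42.6 ± 0.588 CPM over the fresh and 39.5 ± 1.36 CPM over the RNA-Best libraries (SD, n = 3 each). Its RNA-Best values all lay below the fresh ones, but the difference did not pass (log2 fold change -0.12; edgeR, adjusted p = 0.0542). *Ccne1* was called lower with upper quartile scaling (-0.14; edgeR, adjusted p = 0.0209) and with no filter on low counts (-0.17; edgeR, adjusted p = 0.0109). *Cdk2*, the kinase of these cyclins, had a log2 fold change of -0.06 and overlapping groups. This gene passed as lower with the exonic length offset (-0.14; edgeR, adjusted p = 0.0130) and not with the transcript length offset (0.01; edgeR, adjusted p = 0.840).

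**Figure D2:**
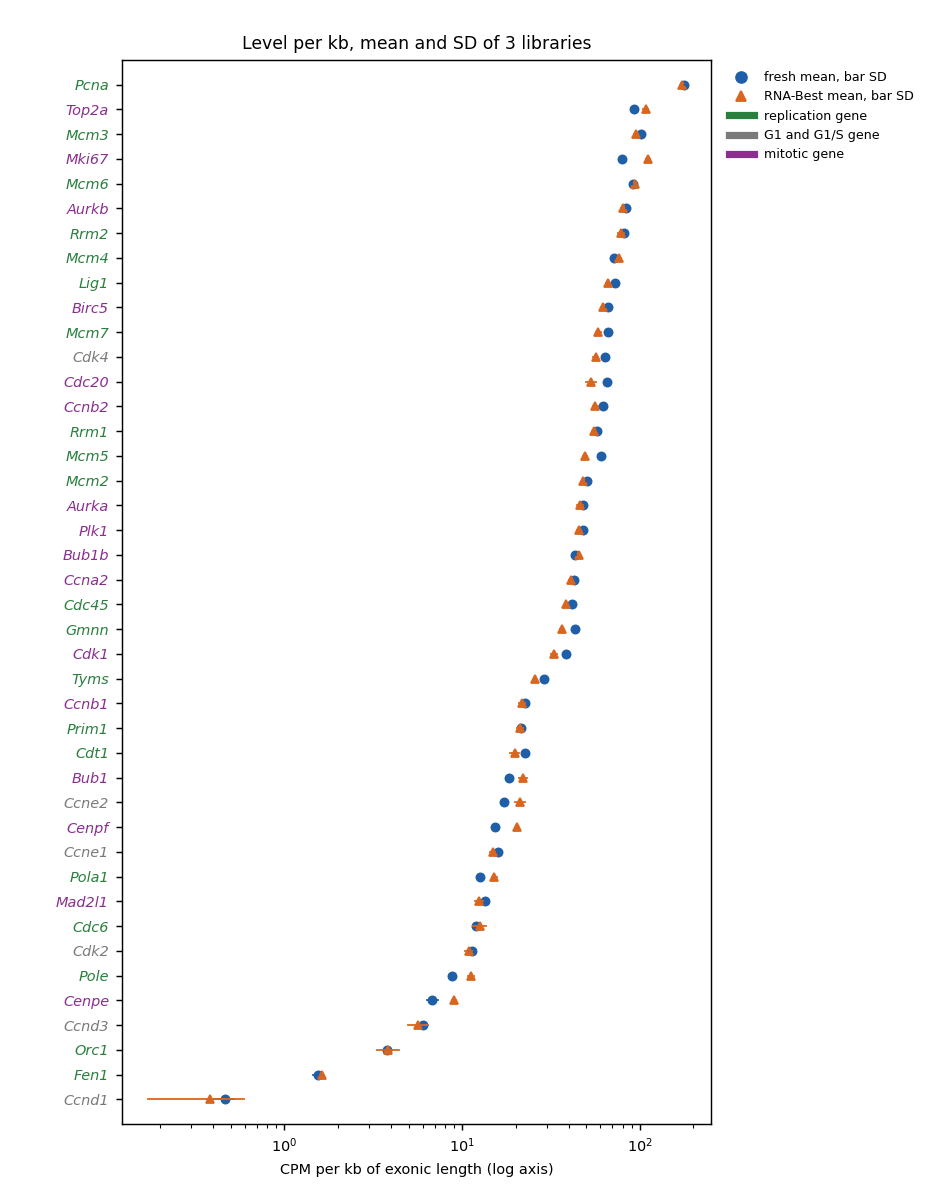
Each row is a gene above the floor of 3 counts and the x axis gives CPM per kilobase of exonic length on a log scale, as the mean of 3 fresh (circles) and 3 RNA-Best (triangles) libraries with bars for the SD. *Pcna* leads at 174 CPM per kilobase over all libraries and *Ccnd1* is last at 0.423, and the distance between groups is small beside the distance between genes.

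Per kilobase of exonic length, *Pcna* was the most abundant of the 44 (174 CPM per kilobase over the 6 libraries), followed by *Top2a* (99.9), *Mcm3* (98.3), *Mki67* (95.3) and *Mcm6* (92.5). At the lower end, *Orc1* (3.81) and *Fen1* (1.59) preceded *Ccnd1*. This order depends on the length used. Per kilobase of the main transcript it began with *Pcna* (275), *Birc5* (230), *Top2a* (173), *Rrm1* (155) and *Mcm6* (148), and 8 of the 10 highest genes were shared. With CPM not divided by length, 6 of the 10 were.

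Of the 7 cyclins and kinases of G2/M, 3 fell (*Cdk1*, *Ccnb2* and *Aurkb*) and 4 did not pass. This is 42.9% called, against 50.7% of all genes. With either length offset 1 of the 7 was called, against 39.3% (exonic) and 35.2% (transcript) of all genes. *Cdk1* (chr10:69335146-69352938), the kinase whose activity starts mitosis, was at 192, 189 and 189 CPM in fresh and 163, 156 and 168 CPM in RNA-Best libraries. All RNA-Best values were below the fresh range, with a log2 fold change of -0.22 ± 0.03 (SE; edgeR, adjusted p = 3.82e-07). The B-type cyclins that activate it had log2 fold changes of -0.15 (*Ccnb2*; edgeR, adjusted p = 0.00144) and -0.07 (*Ccnb1*; edgeR, adjusted p = 0.133). *Ccna2* (chr3:36564865-36572150), the cyclin of S and G2 phases, had the highest log2 fold change of the group. Its level was 177, 170 and 173 CPM in fresh and 172, 163 and 169 CPM in RNA-Best, and its groups overlapped (log2 fold change -0.04 ± 0.03, SE; edgeR, adjusted p = 0.325). *Aurkb*, the kinase of the chromosomal passenger complex, was called at an adjusted p of 0.0443 (edgeR). Its log2 fold change was -0.07, and the call was lost with the replicate number as a block (edgeR, adjusted p = 0.0524). Leaving out fresh replicate 1 or 2 or RNA-Best replicate 2 or 3 gave adjusted p of 0.0754 to 0.240 (edgeR). *Plk1* (-0.07) and *Aurka* (-0.05), kinases of spindle assembly, did not pass.

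All 4 spindle checkpoint and anaphase genes passed the test, 2 higher and 2 lower (26.0% and 24.7% of all genes). With the transcript length offset 3 of the 4 did (35.2% of all genes). *Bub1* (chr2:127801122-127831865), a kinetochore kinase of the checkpoint, was at 81.9, 77.6 and 81.6 CPM in fresh and 90.1, 100 and 97.7 CPM in RNA-Best libraries. It was higher in all 3 RNA-Best libraries (log2 fold change 0.25 ± 0.04, SE; edgeR, adjusted p = 2.45e-06). *Bub1b*, which encodes the checkpoint protein BUBR1, rose by less (0.08; edgeR, adjusted p = 0.0305), and without any 1 library other than the first fresh one its adjusted p was 0.0592 to 0.0929 (edgeR). *Cdc20* (chr4:118432901-118437352), the activator of the anaphase-promoting complex on which the checkpoint acts, went the other way, at 120, 123 and 121 CPM in fresh and 105, 91.8 and 100 CPM in RNA-Best. These groups did not overlap (log2 fold change -0.28 ± 0.04, SE; edgeR, adjusted p = 9.59e-08). *Mad2l1*, whose protein MAD2 holds CDC20 inactive, fell as well (-0.11; edgeR, adjusted p = 0.0139). Without the first RNA-Best library, this value did not pass (edgeR, adjusted p = 0.186).

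The chromosome and kinetochore genes gave the highest changes of the 44, with 4 of 5 higher in RNA-Best (26.0% of all tested genes were) and a median log2 fold change of 0.37. With the exonic and the transcript length offsets 2 of the 5 were called, both higher (18.9% and 17.1% of all genes), and the median was 0.05 and 0.07. *Mki67* (ENSMUSG00000031004, chr7:135689784-135716361), which encodes the proliferation marker Ki-67 that coats mitotic chromosomes, was at 798, 812 and 791 CPM in fresh and 1092, 1119 and 1140 CPM in RNA-Best libraries. The groups lay far apart beside their spread, at 800 ± 10.8 CPM (SD, n = 3) and 1117 ± 24.3 CPM (SD, n = 3). The log2 fold change was 0.48 ± 0.03 (SE; edgeR, adjusted p = 1.01e-17), or 1.40-fold. *Cenpf*, a large kinetochore and centromere protein, was at 240, 235 and 238 CPM in fresh and 311, 314 and 312 CPM in RNA-Best (log2 fold change 0.39 ± 0.03, SE; edgeR, adjusted p = 1.66e-14). *Cenpe*, the kinesin of the kinetochore, rose by 0.37 and *Top2a*, the topoisomerase that untangles sister chromatids, by 0.22 on the log2 scale. The 4 genes that rose all have main transcripts over 5 kb, a class in which 1912 of 2676 tested genes of any function rose and 81 fell. *Birc5* (chr11:117849251-117855743), which encodes survivin of the passenger complex, was the exception, at 223, 222 and 233 CPM in fresh and 208, 214 and 208 CPM in RNA-Best. It fell without overlap (log2 fold change -0.10 ± 0.03, SE; edgeR, adjusted p = 0.00475).

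Taking the phases as wholes, 3 of 20 replication genes were higher and 9 lower, and 6 of 16 mitotic genes were higher and 6 lower, where 26.0% of all tested genes were higher and 24.7% lower. The medians of the log2 fold changes were close without an offset, at -0.05 and -0.06. With the exonic length offset they were -0.015 and 0.019, and with the transcript length offset -0.039 and 0.014. The mean level of each set, log2(CPM + 1) averaged over its genes, was also taken in each library. Replication minus mitotic was -0.267, -0.279 and -0.250 in the fresh libraries and -0.339, -0.363 and -0.328 in the RNA-Best libraries. The RNA-Best values lay below the fresh ones, with a mean difference of -0.0778 (RNA-Best minus fresh), a change of -0.0365 in the replication mean and one of 0.0413 in the mitotic mean. Without an offset, the mean and the median of the mitotic set thus had opposite signs. The mean takes in the large rises of *Mki67*, *Cenpf*, *Cenpe*, *Bub1* and *Top2a*. After the exonic length offset described below, the change in the mitotic mean was 0.0114, which has the sign of its median with that offset. The change in the replication mean was -0.0451 and the difference -0.0565. These means were not taken with the transcript length offset.

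Most of the genes with the largest rises have long transcripts. In this table the fold change moved with the length of the message in genes of all kinds, with a Spearman coefficient of 0.568 with the length of the main annotated transcript over 14677 genes and 0.520 over the 42. Genes share libraries, so these coefficients are descriptions across genes. Of the 7 genes with transcripts over 5 kb, 6 rose (*Mki67*, *Cenpf*, *Cenpe*, *Pole*, *Pola1* and *Top2a*) and 1, *Mad2l1*, fell. Of the 20 with transcripts of at most 3 kb, 9 fell and 0 rose, while 3024 of 7880 tested genes of that class fell and 624 rose. Among all tested genes of these classes, the medians of the log2 fold change were 0.27 and -0.13, and those of the 44 genes were 0.35 and -0.09. The GC content, pooled over the annotated transcripts of a gene, moved the other way. Its Spearman coefficient was -0.605 over the 42 genes and -0.336 over all.

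**Figure D3:**
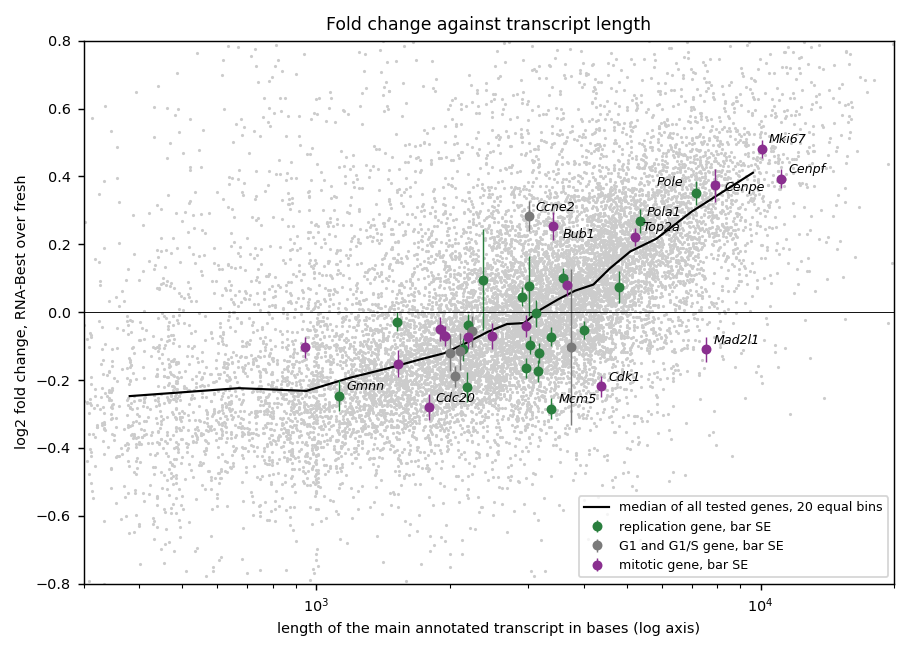
Grey points are tested genes, of which 585 of 14677 lie outside the axes, coloured points are the 42 genes with bars for the SE, and the line is the median of all tested genes in 20 equal bins, with transcript length on a log x axis and the log2 fold change of RNA-Best over fresh on the y axis. *Cenpf*, *Cenpe*, *Pole* and *Mki67* follow the line upward at the right, whereas *Mad2l1*, *Cdk1* and *Mcm5* lie under it and *Ccne2* and *Bub1* above it.

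Offsets fitted to length in each library lowered the relation and left part of it. With the exonic length offset, the Spearman coefficient of the fold change with transcript length was 0.215 over all genes, 0.198 over the 42 and 0.376 over the 16 mitotic genes, and that of the mitotic genes with exonic length was 0.359. With the transcript length offset, the coefficients with transcript length were 0.0853, 0.0148 and 0.0441. A call that stayed under the exonic offset alone is therefore not free of the relation with length. With an offset for exonic length, 22 of the 42 were called (9 higher, 13 lower), against 39.3% of all genes (18.9% higher, 20.4% lower), and with an offset for the length of the main transcript 18 were (6 higher, 12 lower), against 35.2% (17.1% higher, 18.1% lower). The count fell furthest in mitotic genes. Of 12 called without an offset, the counts under the offsets were 7 and 6 of 16, while replication genes went from 12 to 11 and 10 of 20. *Cenpf* had log2 fold changes of 0.05 and -0.02 with the offsets and was called under neither. *Mki67* went to 0.26 (edgeR, adjusted p = 2.04e-10) and 0.10 (edgeR, adjusted p = 0.00371), and *Top2a* to 0.03 and 0.07, the first of which did not pass. *Cenpe* and *Pole* remained called with the exonic length (0.20 and 0.10) and did not pass with the transcript length.

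Several genes away from the length trend passed the test with either offset. *Bub1* had 0.26 and 0.23, *Ccne2* 0.33 and 0.29, *Mcm5* -0.26 and -0.30, *Cdk1* -0.24 and -0.31, and *Cdc20* -0.16 and -0.17, given for the exonic and then the transcript length. *Mad2l1* went further down, to -0.27 and -0.39, with a main annotated transcript of 7557 bases. Whether these cells express that length was not tested. *Pcna*, not called without an offset, turned to 0.07 (edgeR, adjusted p = 0.026) and 0.11 (edgeR, adjusted p = 0.0013). *Rrm1* fell with both, to -0.30 and -0.12, and its annotated exons sum to 11012 bases against 3997 in its main transcript. *Aurkb*, *Ccnb2*, *Birc5*, *Cdc45* and *Gmnn* were called under neither offset. Over all alternatives other than the 1.2-fold threshold, the calls that held in each were those of *Mki67* and *Bub1* as higher and *Mcm5*, *Mcm7*, *Tyms*, *Cdk4*, *Cdk1* and *Cdc20* as lower. With the GC offset, 4 genes changed sign, 7 others lost their call and 6 gained one, among them *Pcna* as lower (log2 fold change -0.16; edgeR, adjusted p = 2.78e-06). Every fresh library was the deeper, and with all libraries thinned to the smallest 5 calls were lost and no gene changed sign.

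**Figure D4:**
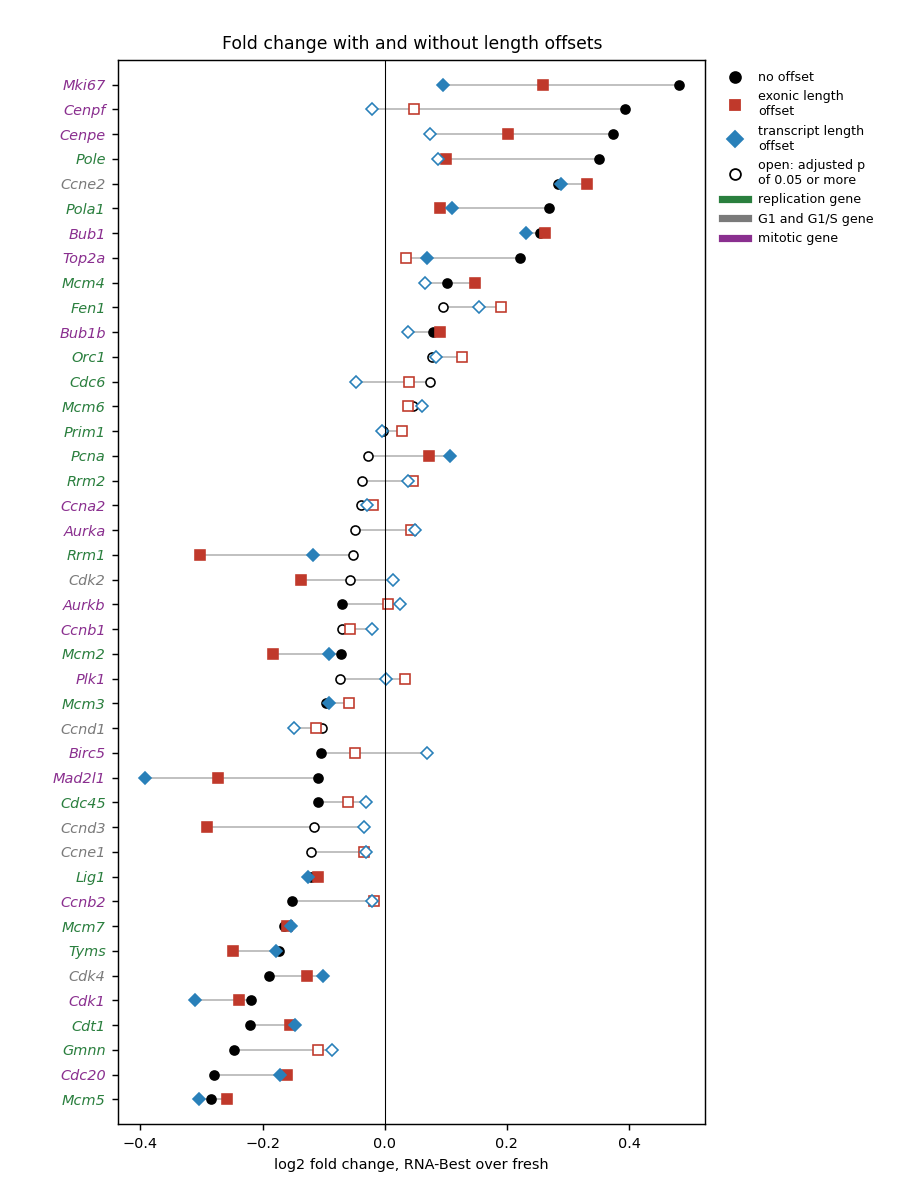
Each row is a tested gene and the x axis the log2 fold change of RNA-Best over fresh without an offset (black circles), with an exonic length offset (red squares) and with a transcript length offset (blue diamonds), filled where the adjusted p is under 0.05. *Cenpf* moves from 0.39 to 0.05 and -0.02 and loses its filling, while *Bub1*, *Ccne2* and *Mcm5* hardly move.

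Related genes outside the 44 were also called in both directions. Of 43 other replication genes, 31 were called (72.1%, against 50.7% of all genes), 11 higher and 20 lower (26.0% and 24.7% of all genes), with a median log2 fold change of -0.09. Their median level was 92.4 CPM, against 27.8 CPM over all tested genes. The highest were *Cdc7* (0.35), the kinase that fires origins, *Dna2* (0.34), a nuclease and helicase of Okazaki fragments, and *Ticrr* (0.31), an origin firing factor. The lowest were *Rpa3* (-0.34), a subunit of the single-strand binding protein, *Gins2* (-0.31), a subunit of the active helicase, and *Rnaseh2a* (-0.29), a ribonuclease subunit that acts on RNA in DNA. Of 46 other mitosis genes, 28 were called (60.9%), 18 higher and 10 lower, with a median of 0.05. The median level of this list was 106 CPM. *Knl1* (0.63), a kinetochore scaffold, *Aspm* (0.39), a spindle pole protein, and *Ncapg* (0.39), a condensin subunit, were the highest. *Pttg1* (-0.29), the securin, *Spc24* (-0.24), of the NDC80 complex, and *Ube2c* (-0.24), the conjugating enzyme of the anaphase-promoting complex, were the lowest. With the exonic length offset the counts were 21 of 43 (5 higher, 16 lower) and 23 of 46 (12 higher, 11 lower), or 48.8% and 50% against 39.3% of all genes. With the transcript length offset 16 of 43 (37.2%) and 21 of 46 (45.7%) were called, against 35.2% of all genes. *Ticrr* did not pass with either offset, and *Aspm*, *Rpa3* and *Ube2c* did not pass with the transcript length offset.

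Of 7 listed inhibitors of cyclin-dependent kinases, 6 were tested and 5 called (83.3%, against 50.7% of all tested genes), 1 higher and 4 lower. The median level of those tested was 145 CPM, against 27.8 CPM over all tested genes. Their median transcript is 1752 bases, and 3024 of the 7880 tested genes with transcripts of at most 3 kb fell while 624 rose. *Cdkn2d* (-0.35) and *Cdkn2c* (-0.19), of the INK4 family that binds CDK4 and CDK6, and *Cdkn1a* (-0.27), which encodes p21, fell. *Cdkn2a* fell as well (-0.31), and counts per gene do not tell its INK4 transcript from its others. *Cdkn1b*, which encodes p27, rose (0.18). *Cdkn2b* had a log2 fold change of -0.10 and did not pass, and *Cdkn1c* was too low to test. With the exonic length offset the same 5 genes were called in the same directions (39.3% of all genes were called). With the transcript length offset *Cdkn1b* did not pass, and 4 were called (35.2% of all genes).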

How the data were processed

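Bulk RNA-seq of LβT2 cells gave 3 fresh and 3 RNA-Best libraries. Alignment by the authors used STAR (2.5.1b in the submitters' processing notes) on GRCm38, with single-end reads, and featureCounts (1.5.0-p1) assigned them to genes. What was deposited are estimated counts, since 9.36% to 16.3% of a library's values lay over 0.001 from a whole number. The setting that divided reads, the strand setting and the strandedness of the kit are not given in the sources used here.

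Counts were rounded and analysed in R 4.3.3 with edgeR 4.0.16 (robust quasi-likelihood test, TMM, filterByExpr with a minimum count of 10, Benjamini-Hochberg adjustment over all 14736 tested genes, threshold 5%). The study's own test was limma-voom, with a fold change threshold beside a false discovery rate of 5%. Limma-voom was run here as an alternative with limma 3.58.1 and no fold change threshold. DESeq2 1.42.0 gave size factors and a Wald test. The SE is the log2 fold change divided by the square root of F. Other alternatives were upper quartile scaling, no filter, a 1.2-fold threshold, a replicate block, length and GC offsets (loess, span 0.5, in each library), thinning to 4909268 counts and leaving out each library. The transcript length offset, and all alternatives for the related gene lists and the length relation, were added after seeing the data. Scripts were tested on simulated data. Gene positions, lengths and GC content were taken from GENCODE M21, a later release than that of the authors on the same assembly. The main transcript of a gene was the longest with the top APPRIS principal tag, or else the longest of all. GC content was pooled over all annotated transcripts of a gene. Promoters are from RefSeq, GRCm38.p6, and *Aurkb*, *Ccna2*, *Ccnd1*, *Ccnd2*, *Ccne2*, *Gmnn*, *Mcm4* and *Pole* had none in the table.

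The common biological coefficient of variation was 2.14%. Floors of 3 counts cover counting error only. In 28 of the 44 genes at least 1 library held parts of counts. In pairs of libraries of a group the chi-square of the counts was 1.10 to 2.04 per gene, above the 1 of sampling noise alone, so none was counted as a duplicate, which does not show that they are separate cultures. The genes and lists were chosen with earlier results of these data known. Every one of the 44 could be named, and values by library are given for the highest and lowest tested gene of each role, the D-type cyclins, and genes whose call or sign turns with a length offset where a result rests on it. From each related list the 3 highest and 3 lowest called genes are named, and fewer where a list is short. *Pold1*, *Pold2*, *Pold3*, *Pole2*, *Pole3*, *Cdkn2b* and *Cdkn1c* were named after their values were seen. Single-cell, qPCR and spike-in measurements were not analysed here.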

Additional observations from a re-analysis of the deposited data

How the results depend on the processing

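Gene length, GC content and depth move with the groups in this table, and among the 42 genes changes of at most 1.40-fold were called, with a common biological coefficient of variation of 2.14% over all genes that may be technical. Limma-voom changed no call of the 42 genes. With a 1.2-fold threshold, 1686 genes were called in all, 4 of the 42, 1 replication, 3 mitotic and 0 G1 and G1/S genes, 1 other replication gene, 5 other mitosis genes and 1 CDK inhibitor. Mitotic calls were 7 with the exonic length offset (39.3% of all genes were called) and 6 with the transcript length offset (35.2%). G1 and G1/S calls were 4 with upper quartile scaling, with no filter and with the exonic length offset, and 1 with the GC offset. The exonic length offset called 39.3% of all genes. The shares of all genes for upper quartile scaling, no filter and the GC offset are not given here. Those counts are therefore not read against all genes. Other replication calls were 16 with the transcript length offset (35.2% of all genes were called). The difference of the mean levels was -0.0565 with the exonic length offset and was not taken with the transcript length offset. The Spearman coefficient with exonic length, 0.398 without an offset, was -0.0701 with the exonic and -0.0487 with the transcript length offset, and 0.520 against transcript length in place of exonic length. Of the 10 highest genes, 6 were shared when CPM was not divided by length.

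Log2 fold changes that turned sign, none of them past the threshold except those of *Pcna*, were as follows. With the exonic length offset *Rrm2* had 0.0458, *Prim1* 0.0290, *Pcna* 0.0718, *Plk1* 0.0328, *Aurka* 0.0437 and *Aurkb* 0.00586. With the transcript length offset *Cdc6* had -0.0478, *Rrm2* 0.0383, *Pcna* 0.107, *Cdk2* 0.0139, *Plk1* 0.00176, *Aurka* 0.0495, *Aurkb* 0.0256, *Birc5* 0.0695 and *Cenpf* -0.0213. With the GC offset *Mcm2* had 0.0178, *Mcm6* -0.00216, *Ccnd3* 0.00226 and *Plk1* 0.0323. *Mcm6* had -0.000666 with no filter and *Prim1* 0.000277 with DESeq2 size factors. Leaving out 1 library gave -0.0898 to 0.169 for *Orc1*, -0.0357 to 0.0126 for *Prim1* and -0.749 to 0.0945 for *Ccnd1*. The cause of these turns was not tested.

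Replicate numbers are shared in the labels, but libraries of the same number did not deviate together (correlations -0.00541, 0.0348 and 0.00248). With the replicate block 7465 genes and 25 of the 42 were called (12 replication, 11 mitotic, 2 G1 and G1/S; 31, 28 and 5 in the related lists), and *Aurkb* was the call that it changed. The replicate block with the exonic length offset called 5791 genes and 21 of the 42 (10 replication, 7 mitotic, 4 G1 and G1/S), gave a Spearman coefficient with exonic length of -0.0900, and turned *Rrm2* (0.0373), *Prim1* (0.0214), *Pcna* (0.0726), *Plk1* (0.0341), *Aurka* (0.0462) and *Aurkb* (0.0105).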
